A study of Sus scrofa with 15 samples.

Results

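Solute carriers (SLC) are membrane proteins that move ions, nutrients and metabolites across the plasma membrane or into organelles, and each numbered family shares a fold and usually a kind of substrate. In cartilage, which has no blood vessels, they are known for importing the sulfate and the nucleotide sugars used to build proteoglycan chains, for exporting the lactate made by glycolysis, and for holding cell volume in a matrix of high osmolarity. The genes described here were every row of the deposited pig table whose symbol had the form SLC, number, letter, number, such as SLC8A3. That rule took 249 of 25322 rows, which carried 247 distinct symbols because SLC7A2 and SLC25A6 each had more than 1 row, and they belonged to 43 families that were sorted into 16 substrate classes.

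The libraries were made from total RNA of cells sorted from the joints of adult pigs, all untreated. Chondrocytes of knee cartilage were separated on 2 surface markers, the integrin alpha chain ITGA4 and the bone morphogenetic protein receptor BMPR1B. Cells with ITGA4 were either ITGA4+BMPR1B+ or ITGA4+BMPR1B-, and cells without it were either ITGA4-BMPR1B+ or ITGA4-BMPR1B-, which gave 4 populations, each from pigs 2, 5 and 6. Synovial cells sorted as CD45-CD31-CD146+ and called CD146+ below, a gate intended for pericytes, came from pigs 3, 4 and 5. Every one of the 5 groups thus had 3 libraries, the 4 chondrocyte populations shared their animals, and all comparisons with CD146+ cells shared the same 3 CD146+ libraries.

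Values are given as messenger-scaled signal, that is, the deposited signal after each library was rescaled over its messenger RNA rows. Before rescaling, messenger rows held 2.03% to 4.15% of the signal in the chondrocyte libraries of pig 2, 2.95% to 3.78% in CD146+ libraries and 11.7% to 22.1% in the chondrocyte libraries of pigs 5 and 6. The 10 chondrocyte markers were all higher in chondrocytes than in CD146+ cells, where their summed level was 44.5 to 117 against 21305 to 97619. Although the gate excluded CD31, the CD146+ libraries carried endothelial genes: the summed level of 13 endothelial marker rows was 3753 to 8837 against 20.1 to 156 in chondrocytes, all 11 tested rows were lower in chondrocytes, and PECAM1, the gene of CD31, stood at 532, 621 and 344. Of the pericyte marker rows 9 were tested. In chondrocytes 1 was higher, CSPG4 (log2 difference 7.88), and 3 were lower, MCAM, the gene of CD146 (-6.70), ACTA2 (-3.62) and RGS5 (-2.59). The summed level of 13 pericyte rows, CSPG4 included, overlapped, at 522 to 937 in CD146+ and 534 to 1639 in chondrocyte libraries. The ITGA4+BMPR1B- library of pig 2 carried the highest macrophage marker sum of the series, 335, followed by that of pig 5 at 56.3. No other library exceeded 18.3. ITGA4 and BMPR1B transcripts were too low to check the sort, at no more than 1.40 and 0.154 in any library. In bulk libraries such as these, fewer cells of a type and less RNA per cell cannot be told apart.

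Of the 249 SLC rows, 248 were above the lowest value of the table in at least 1 library, 133 were above it in all 15, and SLC38A1 was at it in all 15. The summed signal of the SLC rows was 4842 to 7052 in chondrocyte libraries and 3834 to 4413 in CD146+ libraries, without overlap. The sum over all messenger rows was apart as well, at 920052 to 1400410 in chondrocyte and 717573 to 817034 in CD146+ libraries. As a share of messenger signal the SLC rows overlapped, at 0.504% to 0.665% in chondrocyte and 0.491%, 0.558% and 0.534% in CD146+ libraries. A gene was tested where it exceeded 5 in at least 3 libraries, which kept 107 SLC rows and left 142 untested, among them all 5 of the class of phosphate, sulfate and carboxylate carriers. That filter admitted 18 SLC rows that exceeded 5 in no CD146+ library and 2 that exceeded 5 in no chondrocyte library, and such genes could hardly pass it without differing between the groups.

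To ask how transport genes distinguished cartilage cells from synovial CD146+ cells, the mean of the 4 chondrocyte libraries of each pig was compared with the CD146+ libraries by limma. Of the 107 tested SLC rows, 34 were higher in chondrocytes at an adjusted p under 0.05, beside 17.1% of all 9961 genes tested, and 14 were lower, beside 17.3% of all genes. Of the 34, 13 exceeded 5 in no CD146+ library and passed the filter through chondrocytes alone. SLC8A3, SLC1A1, SLC2A9, SLC38A3, SLC35D1 and SLC4A3 were among them. For these genes the p-values and the lack of overlap given below add little to the values. Of the 14, 3 exceeded 5 in at most 1 chondrocyte library. The median SLC change was 0.296 on the log2(signal + 1) scale against -0.0197 over all genes. Among the 62 SLC rows above 5 in all 15 libraries, where the filter played no part, 15 were higher and 8 lower, beside 13.0% and 15.7% of the genes that met the same condition. All 12 chondrocyte libraries lay above all 3 CD146+ libraries for 30 SLC rows, beside 14.8% of genes, and below them for 12, beside 15.6%. The counts by substrate class on the messenger scale given below stand beside the same 17.1% of all genes higher and 17.3% lower, and most classes are small.

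The split between directions depended on the scale. When messenger rows were brought to a common total only, all genes shifted by a median of -0.442 and, of 106 SLC rows tested, 20 were higher and 25 lower, beside 11.2% and 32.7% of genes. On the deposited scale, where all genes shifted by a median of 0.586, 11 of 77 SLC rows tested were higher, beside 8.33% of genes, and SLC16A14 was lower, beside 1.48%. Of the 48 rows called on the messenger scale, 34 were called with the total alone. On the deposited scale 12 of the 48 were called, 27 were not and 9 were untested there, among them SLC15A3, SLC4A3, SLC16A5 and SLC16A8. The 12 were SLC16A14 and, all higher, SLC1A1, SLC1A4, SLC2A9, SLC7A1, SLC7A2, SLC8A3, SLC16A1, SLC26A2, SLC29A1, SLC38A5 and SLC39A14. SLC35D1 (0.73, adjusted p = 0.0900) and SLC38A3 (0.82, adjusted p = 0.0537) were among those no longer called. SLC35A4, SLC35B1 (0.41), SLC36A4, SLC43A2 (0.13) and SLC25A44 (0.36) changed sign, but each stayed below the median shift of 0.586 over all genes.

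**Figure D1:**
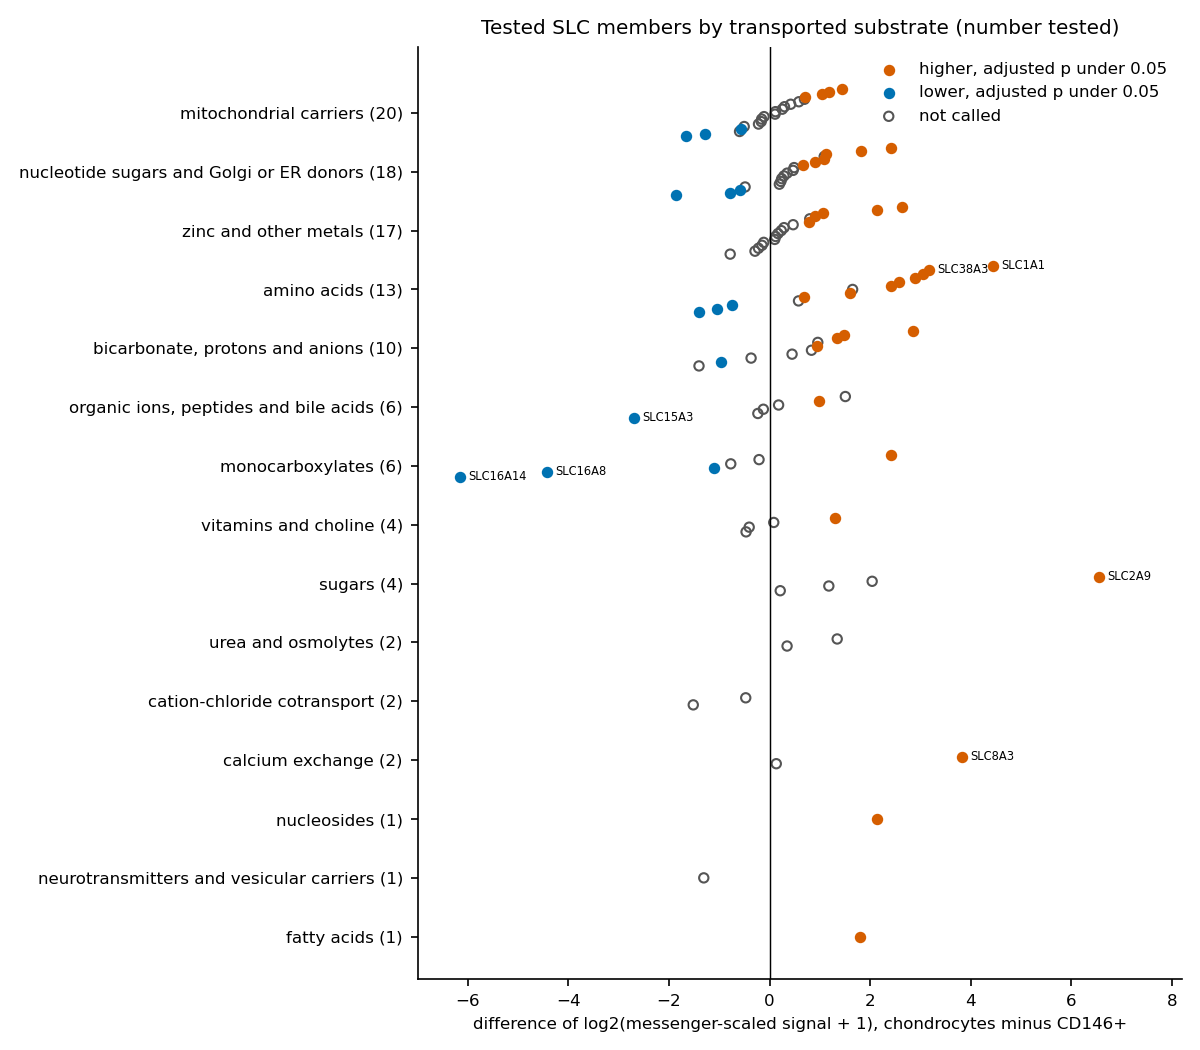
Each point is a tested SLC row, placed by its difference of log2(messenger-scaled signal + 1) between chondrocytes (mean of 3 pigs) and CD146+ cells (3 libraries) and grouped by substrate. Filled points passed an adjusted p of 0.05 (34 higher in orange, 14 lower in blue), and the points farthest from 0 are SLC2A9 at 6.54 and SLC16A14 at -6.16.

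SLC8A3 encodes NCX3, a plasma membrane exchanger that moves calcium out of the cell against sodium and is best known from muscle and brain. Its signal ran from 6.88 through a median of 16.5 to 25.2 over the 12 chondrocyte libraries and was 0.0320, 0.105 and 0.0157 in the CD146+ libraries. The chondrocyte libraries all lay above the CD146+ libraries, in which the gene was close to the bottom of the table. On the log2(signal + 1) scale the difference was 3.82 (SE 0.24, limma adjusted p = 0.000172), a scale that understates the change of a gene with values far below the added 1. SLC8A3 passed the filter through the chondrocyte libraries alone and could hardly do so without differing, so the p-value adds little to the values. The other tested calcium carrier, SLC8B1, the sodium and calcium exchanger of mitochondria, differed by 0.13 (SE 0.36, adjusted p = 0.801). SLC8A1, the related exchanger of heart muscle, was untested, at the lowest value in 10 of 12 chondrocyte libraries and at most 0.454 in the rest.

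Sulfate and nucleotide sugar import are the steps that feed glycosaminoglycan synthesis. SLC26A2, the sulfate transporter mutated in human diastrophic dysplasia, had a signal of 44.9 to 145 with a median of 72.7 in chondrocytes and of 9.73, 12.9 and 6.82 in CD146+ libraries. No chondrocyte library fell as low as any CD146+ library, and the difference was 2.85 (SE 0.31, adjusted p = 0.00118). SLC35D1 carries UDP-glucuronic acid and UDP-N-acetylgalactosamine, the precursors of chondroitin sulfate, into the endoplasmic reticulum. Its signal was 5.05 to 18.8 with a median of 9.17 in chondrocytes against 0.715, 1.15 and 1.20. The difference was 2.41 (SE 0.26, adjusted p = 0.00116) with no overlap. SLC35D1 passed the filter through chondrocytes alone, so that p-value and the lack of overlap add little to the values. SLC35B2, which brings the sulfate donor PAPS into the Golgi, could not be tested: it was at the lowest value in 6 of 12 chondrocyte and 2 of 3 CD146+ libraries and reached no more than 2.45.

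Of the 21 nucleotide sugar and Golgi or ER donor carriers, 18 were tested, 6 rose and 3 fell. Besides SLC35D1, the higher ones were SLC35A3, which carries UDP-N-acetylglucosamine (log2 difference 1.07), SLC35A5 (0.91), SLC35E1 (0.67), SLC35F5 (1.12) and SLC35G1 (1.82). The lower ones were SLC35G2 (-1.85), SLC35B1 (-0.59) and SLC35A4 (-0.79, SE 0.17, adjusted p = 0.0133). SLC35A4 changed sign on the deposited scale, where it was 0.27, but stayed below the upward median shift of all genes. Its adjusted p was 0.0608 with the pig as a random block. The class as a whole counted 2 higher and 3 lower with the total alone as the scale, beside 11.2% and 32.7% of genes. It counted 0 on the deposited scale, beside 8.33% higher and 1.48% lower.

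Of 28 amino acid carriers, 13 were tested, 8 were higher in chondrocytes and 3 lower. The counts were 7 and 3 with the total alone, beside 11.2% and 32.7% of genes. On the deposited scale they were 5 and 0, beside 8.33% and 1.48%. SLC7A1, the cationic amino acid transporter that imports arginine, had a signal of 68.2 to 169 with a median of 127 in chondrocytes against 20.1, 20.7 and 18.7. SLC1A4, an exchanger of small neutral amino acids, had 38.5 to 92.3 with a median of 59.6 against 9.99, 9.22 and 4.11. Neither overlapped between the groups, and the differences were 2.42 (SE 0.24, adjusted p = 0.000918) for SLC7A1 and 2.88 (SE 0.33, adjusted p = 0.00136) for SLC1A4.

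SLC1A1, the glutamate and cysteine transporter EAAT3, had a signal of 6.77 to 46.0 with a median of 22.4 in chondrocytes. It was at the lowest value in 2 CD146+ libraries and at 0.0497 in that of pig 5, so that the fitted 4.44 (SE 0.45, adjusted p = 0.000931) depends on the added 1. SLC38A3, a sodium-coupled glutamine transporter, ranged from 3.31 to 27.2 with a median of 6.92 against 0.287, 0.177 and the lowest value, a difference of 3.18 (SE 0.29, adjusted p = 0.000593). SLC1A1 and SLC38A3 passed the filter through chondrocytes alone, so their p-values add little to the values. The other amino acid carriers that rose were SLC7A2 (3.06), SLC38A5 (2.58), SLC1A5 (1.60) and SLC38A10 (0.68). The second row under the SLC7A2 symbol was tested too and did not pass, and reads shared by such rows may have been split between them.

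The lower amino acid carriers were SLC7A7, SLC43A2 and SLC36A4. SLC7A7, a light chain that pairs with SLC3A2 to exchange cationic for neutral amino acids, had a signal of 7.87 to 13.4 with a median of 9.92 in chondrocytes against 30.0, 27.8 and 28.5. The groups were apart, with a difference of -1.41 (SE 0.16, adjusted p = 0.00121). It was -0.09 on the deposited scale, where the median over all genes shifted upward. SLC36A4, of the proton-coupled amino acid transporter family, differed by -0.75 (SE 0.19, adjusted p = 0.0248). Its call was lost without pig 5 (adjusted p = 0.0746), without pig 6 (0.0874), without the CD146+ library of pig 3 (0.0549) or of pig 5 (0.0600). On the deposited scale SLC36A4 was 0.20, below the upward median shift of all genes.

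Of 19 sugar carriers 4 were tested, and 1 was called. SLC2A9, which despite its place in the glucose transporter family is known as a urate transporter, had a signal of 45.9 to 421 with a median of 153 in chondrocytes. In CD146+ libraries it was at the lowest value in those of pigs 3 and 4 and at 3.37 in that of pig 5. Every chondrocyte library was thus far above every CD146+ library, with a fitted difference of 6.54 (SE 0.67, adjusted p = 0.000939) whose size rests on the added 1. SLC2A9 remained called on the deposited scale and with the total alone. It passed the filter through chondrocytes alone, so the p-value adds little to the values.

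The monocarboxylate carriers went in both directions. Of 11, 6 were tested, 5 of family SLC16 and SLC5A8, and 1 rose and 3 fell, all of SLC16. SLC16A1 (MCT1), which carries lactate and pyruvate with a proton, had a signal of 86.7 to 202 with a median of 122 in chondrocytes against 11.4, 32.7 and 34.8. The groups did not overlap and the difference was 2.42 (SE 0.44, adjusted p = 0.00753). SLC16A3 (MCT4), the lactate exporter of glycolytic cells, did not pass: it had 43.7 to 232 with a median of 132 in chondrocytes against 138, 192 and 110, a difference of -0.21 (SE 0.41, adjusted p = 0.724).

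SLC16A14, a family member with no well-established substrate, showed the opposite pattern. It was at the lowest value in 10 of 12 chondrocyte libraries and at 6.98 and 1.17 in the other 2, against 107, 120 and 56.5 in CD146+ libraries, a fitted difference of -6.16 (SE 0.35, adjusted p = 0.000107). SLC16A8 (MCT3), a lactate transporter known from the retinal pigment epithelium, was likewise at the lowest value in 10 chondrocyte libraries and at most 3.67, against 54.9, 35.6 and 7.98 (difference -4.42, SE 0.67, adjusted p = 0.00378). SLC16A5 fell by 1.11 (SE 0.23, adjusted p = 0.0121), a call lost without pig 5 (adjusted p = 0.0528). These genes were high in the same libraries that carried the endothelial markers, and the part of those cells in the result was not tested.

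**Figure D2:**
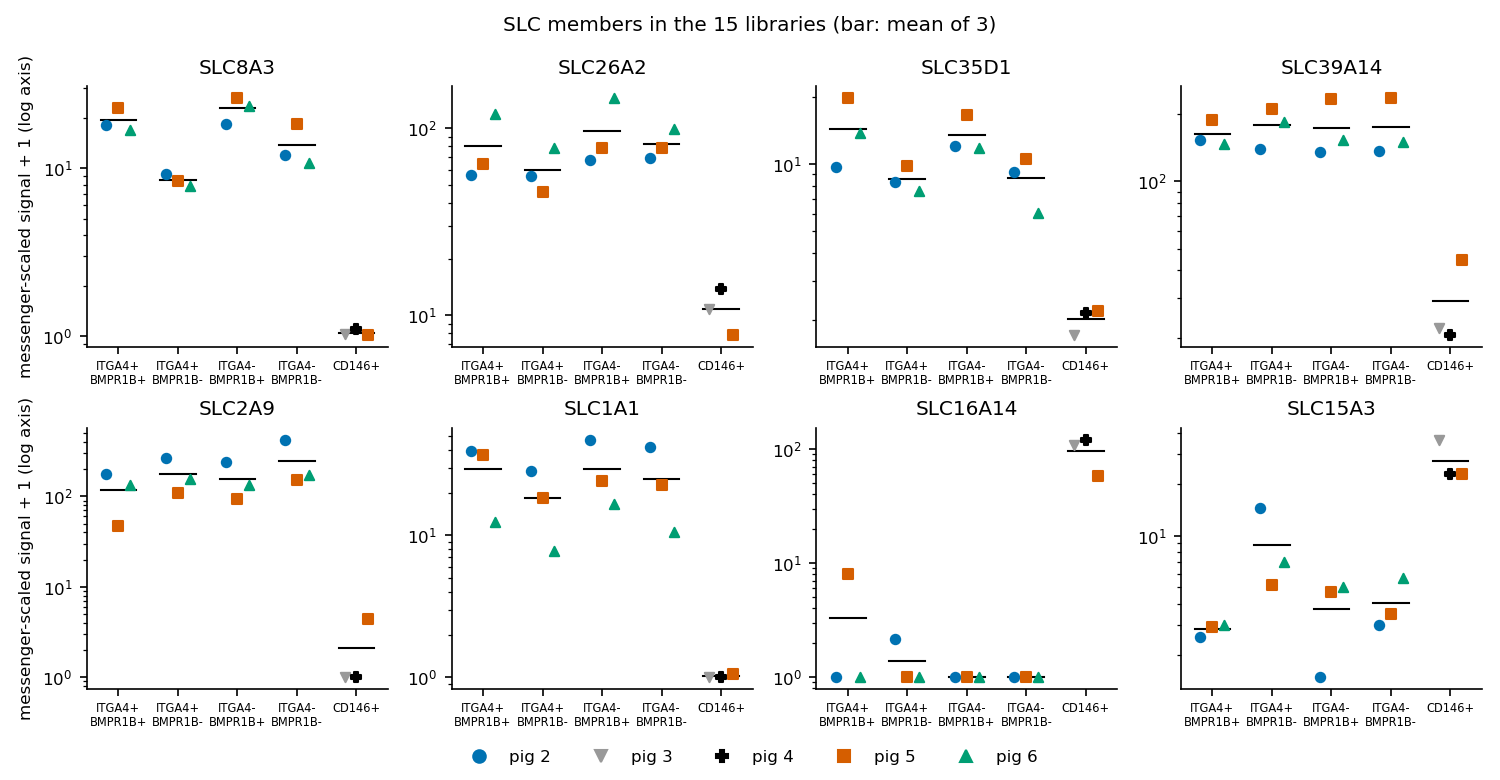
Messenger-scaled signal plus 1 (log axis) of 8 SLC genes in the 3 libraries of each of the 5 groups, with symbols for the pig and a bar at the mean of 3. SLC8A3, SLC26A2, SLC35D1, SLC39A14, SLC2A9 and SLC1A1 sit higher in all 12 chondrocyte libraries, and SLC16A14 and SLC15A3 sit higher in the 3 CD146+ libraries.

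Zinc and other metal carriers gave 5 higher and 0 lower of 17 tested out of 26. SLC39A14 (ZIP14), which imports zinc and manganese, had a signal of 134 to 235 with a median of 152 in chondrocytes against 21.1, 19.6 and 43.7, with no overlap and a difference of 2.62 (SE 0.35, adjusted p = 0.00231). The other higher ones were SLC39A2 (2.14), SLC39A7, the zinc exporter of the endoplasmic reticulum (1.06), SLC30A7, which loads zinc into the Golgi (0.91), and SLC39A6 (0.78). SLC39A13 (ZIP13), whose loss causes a human connective tissue disorder with skeletal dysplasia, had 20.5 to 43.4 against 27.4, 46.4 and 16.7, a difference of 0.23 (SE 0.36, adjusted p = 0.648). SLC39A8 (ZIP8) was untested at no more than 1.15 in any library. With the total alone the class counted 2 higher and 3 lower, beside 11.2% and 32.7% of genes on that scale.

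Among carriers of bicarbonate, protons and anions, 10 of 26 were tested, 4 rose and 1 fell. With SLC26A2, described above, the higher ones included the anion exchangers SLC4A3 (1.49, SE 0.22, adjusted p = 0.00385) and SLC26A6 (1.34). SLC4A3 had a signal of 3.64 to 9.27 with a median of 6.08 against 1.45, 1.89 and 1.46. The groups did not overlap for SLC4A3, which passed the filter through chondrocytes alone, so its p-value adds little to the values.

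Mitochondrial carriers, the largest class with 38 rows and 20 tested, counted 4 higher and 3 lower. These counts were near the shares of all genes, 17.1% higher and 17.3% lower. The higher ones were the citrate carrier SLC25A1 (1.04), the ornithine carrier SLC25A15 (1.44), SLC25A43 (1.17) and SLC25A40 (0.70). SLC25A39, which imports glutathione into mitochondria, had 19.8 to 58.1 with a median of 38.6 against 133, 108 and 107 (difference -1.66, SE 0.24, adjusted p = 0.00320), and its groups were apart. SLC25A30 (-1.28, SE 0.25, adjusted p = 0.0104) and SLC25A44 (-0.57) were also lower. No mitochondrial carrier was called on the deposited scale, beside 8.33% of genes higher and 1.48% lower. SLC25A6, the ADP and ATP carrier, had a row at 963 to 2434 in chondrocytes against 1198, 1205 and 835 that did not pass (0.69, SE 0.23, adjusted p = 0.0591), and reads of near-identical ADP and ATP carrier genes may be shared among rows, so its level is uncertain.

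SLC29A1 (ENT1), the equilibrative nucleoside transporter that also carries adenosine, was the only tested row of 7 nucleoside carriers. It had 129 to 603 with a median of 289 in chondrocytes against 75.5, 101 and 37.6, so all chondrocyte libraries were higher (2.13, SE 0.47, adjusted p = 0.0154), and without pig 5 the adjusted p was 0.0515. SLC15A3, a peptide and histidine transporter of the lysosome, was lower, with 0.492 to 13.5 and a median of 3.07 against 35.2, 21.9 and 22.0 (-2.70, SE 0.26, adjusted p = 0.000711). Its highest chondrocyte value belonged to the ITGA4+BMPR1B- library of pig 2, the one with the highest macrophage marker sum. SLC27A3 of the fatty acid family (1.80), SLC44A1 of the choline family (1.30) and SLC22A17 of the organic ion family (0.99) completed the calls.

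SLC12A2 and SLC5A3, both known for their part in cell volume, did not pass in the comparison of all chondrocytes. SLC12A2 (NKCC1), the sodium, potassium and chloride cotransporter, had 1.83 to 3.16 with a median of 2.82 in chondrocytes against 5.59, 23.2 and 6.25. Its groups did not overlap, but the difference of -1.52 (SE 0.51) had an adjusted p of 0.0607. Without the CD146+ library of pig 4, the highest of the 3, it was -0.92 (adjusted p = 0.0449), without that of pig 3 it was -1.85 (adjusted p = 0.0463), and with the total alone it was -1.90 (adjusted p = 0.0242). In a fit that treated all 15 libraries as separate, it was called lower in each population set against CD146+ cells. The differences were -1.43 with BMPR1B (limma adjusted p = 0.0145) and -1.65 without it (0.00728) among ITGA4+ cells. Among ITGA4- cells they were -1.40 with BMPR1B (0.0153) and -1.59 without it (0.00819). SLC5A3, the sodium and myo-inositol cotransporter, had 162 to 1343 with a median of 842 against 133, 216 and 507, which overlapped (1.34, SE 0.73, adjusted p = 0.201). The urea transporter SLC14A1 was at the lowest value in 9 of 12 chondrocyte and all 3 CD146+ libraries, and the phosphate carrier SLC20A2 was untested at 0.240 to 4.29 in all libraries.

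SLC17A8, SLC44A2, SLC12A9 and SLC10A3 did not pass either. SLC17A8, a vesicular glutamate transporter, had a median of 2.87 in chondrocytes against 9.19, 1.42 and 14.4 (-1.31, SE 0.71, adjusted p = 0.197), and without the CD146+ library of pig 4 it was -2.10 (adjusted p = 0.0156). SLC44A2, of the choline family, had 55.7 to 184 against 172, 130 and 103 (-0.41, adjusted p = 0.252). SLC12A9, of the cation and chloride cotransporter family, had 6.20 to 9.59 against 9.39, 10.6 and 12.6 (-0.47, adjusted p = 0.0989). With the total alone both passed, at -0.84 (adjusted p = 0.0186) and -0.88 (adjusted p = 0.0242). SLC10A3, of the bile acid family, overlapped, with 60.4 to 113 against 110, 126 and 80.9 (-0.23, adjusted p = 0.463).

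Each chondrocyte population was also set against the same CD146+ libraries, in a fit that treated all 15 libraries as separate. In ITGA4+BMPR1B+ cells 35 SLC rows were higher and 11 lower, beside 18.0% and 17.9% of all genes. The counts were 32 and 11 in ITGA4+BMPR1B- cells (16.2% and 15.5% of genes), 37 and 13 in ITGA4-BMPR1B+ cells (18.6% and 17.9%) and 32 and 14 in ITGA4-BMPR1B- cells (17.5% and 15.6%). On the deposited scale 4, 2, 2 and 2 of 77 SLC rows were called in these comparisons, in the order given, beside 4.55%, 3.79%, 3.19% and 2.45% of genes. SLC8A3 differed from CD146+ cells by 4.18, 3.01, 4.42 and 3.66, again in that order, SLC38A3 by 4.26, 2.41, 3.55 and 2.48, and SLC39A14 by 2.56, 2.68, 2.62 and 2.63. For SLC8A3 and SLC38A3 the 2 larger differences were those of the BMPR1B+ populations, while SLC39A14 lay between 2.56 and 2.68 in all 4.

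To ask which carriers followed BMPR1B, both BMPR1B+ populations were compared with both BMPR1B- populations over the 12 chondrocyte libraries. Without regard to the pig, limma called 0 of 107 SLC rows, beside 0.131% of genes higher and 0.0803% lower, and 19 SLC rows and 983 genes had an unadjusted p under 0.05. With the pig as a block, which compares populations within animals, 2 SLC rows rose and 1 fell, beside 1.21% of genes higher and 1.47% lower. The former were SLC8A3 and SLC29A1, the latter SLC36A1, and with the total alone SLC36A1 was no longer called (adjusted p = 0.0718). None of these calls held when any pig was left out of the blocked fit, which then called 0 SLC rows. The share of all genes called with a pig left out is not given, so this loss cannot be told from a loss over all genes. Markers moved on the same axis: with the block, 6 of 10 chondrocyte markers were higher in BMPR1B+ cells, among them COL2A1 (1.28, adjusted p = 0.0413) and MATN3 (1.36, adjusted p = 0.0190), while the endothelial marker S1PR1 (-2.42, adjusted p = 0.0406), 1 of 11 tested, and the fibroblast marker PDGFRA (-1.06, adjusted p = 0.0484), 1 of 6, were lower. The part of these cells in the SLC differences was not tested.

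SLC8A3 was 17.0, 21.8 and 15.9 in ITGA4+BMPR1B+ cells and 8.21, 7.35 and 6.88 in ITGA4+BMPR1B- cells of pigs 2, 5 and 6. In ITGA4-BMPR1B+ cells it was 17.4, 25.2 and 22.6, and in ITGA4-BMPR1B- cells 11.0, 17.3 and 9.73. The BMPR1B+ library was the higher in 6 of 6 within-pig pairs, with a difference of 0.97 (SE 0.13, adjusted p = 0.0194 with the block and 0.0536 without). By mean, ITGA4-BMPR1B+ cells were highest (21.8 ± 3.98, SD, n = 3), followed by ITGA4+BMPR1B+ (18.3 ± 3.14), ITGA4-BMPR1B- (12.7 ± 4.06) and ITGA4+BMPR1B- (7.48 ± 0.674). The ranges of the libraries overlapped between each neighbouring pair except the last.

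SLC29A1 was 603, 310 and 242 in ITGA4+BMPR1B+ cells and 393, 171 and 129 in ITGA4+BMPR1B- cells of pigs 2, 5 and 6. In ITGA4-BMPR1B+ cells it was 530, 374 and 258, and in ITGA4-BMPR1B- cells 431, 267 and 170. In each population pig 2 was highest and pig 6 lowest, although pigs 5 and 6 overlapped over all populations, at 171 to 374 and 129 to 258. The value was higher in the BMPR1B+ cells in 6 of 6 pairs (0.63, SE 0.10, limma adjusted p = 0.0234 with the block). SLC36A1, a proton-coupled amino acid transporter of the lysosome, was lower in BMPR1B+ cells in 6 of 6 pairs: 6.25, 3.84 and 8.77 against 10.7, 14.9 and 14.9 among ITGA4+ cells and 4.65, 4.80 and 6.36 against 6.06, 7.12 and 11.1 among ITGA4- cells (-0.77, SE 0.16, adjusted p = 0.0436).

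SLC38A3, SLC35D1 and SLC43A2, chosen after their values were seen, came close to the threshold. SLC38A3 was 17.7, 24.0 and 22.1 in ITGA4+BMPR1B+ cells against 6.95, 5.60 and 3.31 in ITGA4+BMPR1B- cells. Among ITGA4- cells it was 5.33, 12.6 and 27.2 against 4.21, 6.89 and 5.47, so the size of the gap varied between pigs while its direction did not (1.46, SE 0.32, adjusted p = 0.0603 with the block). SLC35D1 was higher in BMPR1B+ cells by 0.68 (adjusted p = 0.0588) and SLC43A2, a transporter of large neutral amino acids, lower by -0.53 (adjusted p = 0.0564), each in 6 of 6 pairs. In all, 14 SLC rows were higher in 6 of 6 pairs, beside 6.49% of genes, and 6 were lower, beside 8.15%. The ITGA4+BMPR1B- library of pig 2 had the highest macrophage marker sum, and that of pig 5 the second highest (56.3). Without the former, and with the latter kept, the blocked fit called 4 SLC rows, all higher. They were SLC8A3 (1.04) and SLC29A1 (0.70), each with an adjusted p of 0.0176, SLC38A3 (1.69, adjusted p = 0.0335) and SLC39A7 (0.41, adjusted p = 0.0460). SLC36A1 then had an adjusted p of 0.0541, and the share of all genes called in that fit is not given.

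**Figure D3:**
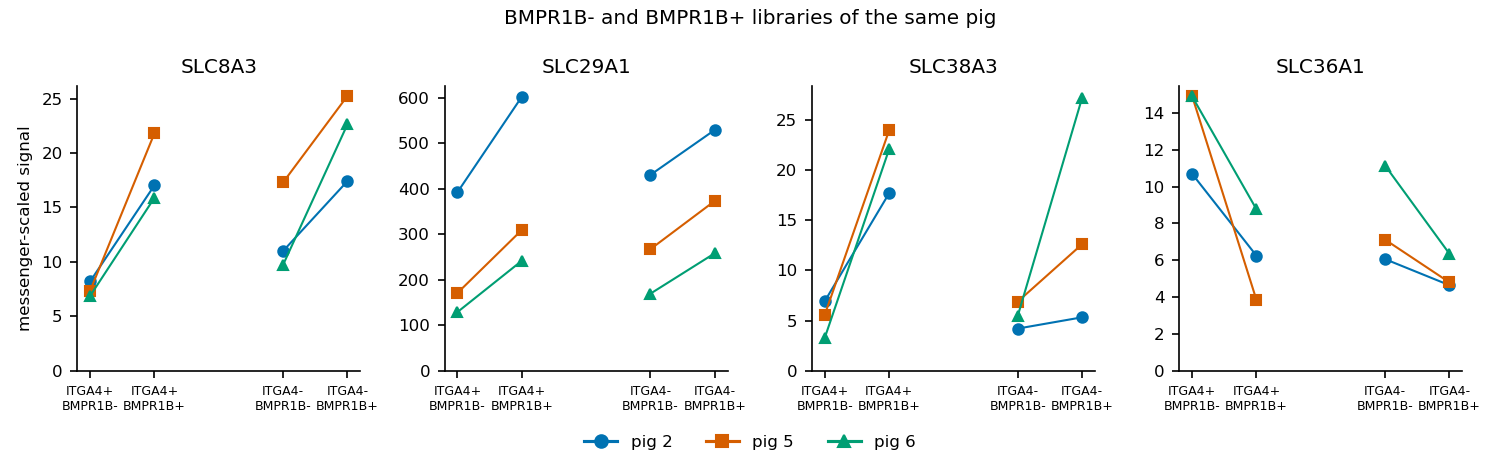
Messenger-scaled signal of 4 SLC genes in the 12 chondrocyte libraries, with lines joining the BMPR1B- and the BMPR1B+ library of the same pig, among ITGA4+ cells on the left and ITGA4- cells on the right of each panel. All 6 lines go up for SLC8A3, SLC29A1 and SLC38A3, and all 6 go down for SLC36A1.

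To ask the same of ITGA4, both ITGA4+ populations were compared with both ITGA4- populations. Limma called 0 SLC rows, beside 0% of genes higher and 0.0100% lower, with 3 SLC rows and 564 genes at an unadjusted p under 0.05. With the pig as a block it again called 0, with 17 SLC rows and 1183 genes at an unadjusted p under 0.05. SLC39A7 had the smallest p: 79.1, 182 and 93.5 in ITGA4+BMPR1B+ cells against 95.5, 192 and 96.9 in ITGA4-BMPR1B+ cells, and 58.2, 106 and 49.9 against 90.2, 176 and 108 in the BMPR1B- pairs. It was lower in ITGA4+ cells in 6 of 6 pairs (-0.48, SE 0.09, adjusted p = 0.148 with the block). SLC1A5, the glutamine transporter ASCT2 (-0.41, adjusted p = 0.214), and SLC8A3 (-0.45, adjusted p = 0.285) had the next lowest p and were also lower in 6 of 6 pairs. On the higher side SLC36A1 (0.43, adjusted p = 0.352) came first, and SLC26A1 was above the lowest value in only 3 libraries, at 14.5, 8.96 and 18.3. In all, 3 SLC rows were higher in 6 of 6 pairs, beside 3.41% of genes, and 6 lower, beside 5.23%.

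Whether the difference made by BMPR1B depended on ITGA4 was tested as an interaction with the pig as a block. Limma called 0 SLC rows, beside 0.0100% of genes higher and 0% lower, and 4 SLC rows and 365 genes had an unadjusted p under 0.05. SLC50A1 (-0.74, SE 0.18) and SLC39A7 (0.69, SE 0.18) had the smallest p, each with an adjusted p of 0.9999.

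Some carriers followed the animal more than the population. All 4 chondrocyte libraries of pig 2 lay above all 8 of pigs 5 and 6 for 11 SLC rows, beside 5.08% of genes, and below them for 5, beside 4.63%. The former were SLC16A3, SLC1A5, SLC29A1, SLC2A9, SLC33A1, SLC35E4, SLC41A1, SLC41A2, SLC4A7 and both rows of SLC7A2, and the latter SLC25A46, SLC35A1, SLC35A5, SLC50A1 and SLC5A3. SLC5A3 was 162 to 345 in pig 2, 640 to 903 in pig 5 and 1173 to 1343 in pig 6, so that the 3 animals did not overlap in any population. SLC16A3 was 202 to 232 in pig 2, 43.7 to 167 in pig 5 and 95.4 to 159 in pig 6. SLC7A2 was 80.5 to 123 in pig 2, against at most 28.3 in the other pigs. Pig 2 was also the animal with the low messenger share given above, and the part of that share in these levels was not tested. Without pig 2, SLC8A3, SLC26A2 and SLC2A9 differed from CD146+ cells by 3.87, 3.00 and 6.15. In that fit 35 SLC rows were called, and the share of all genes called is not given.

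**Figure D4:**
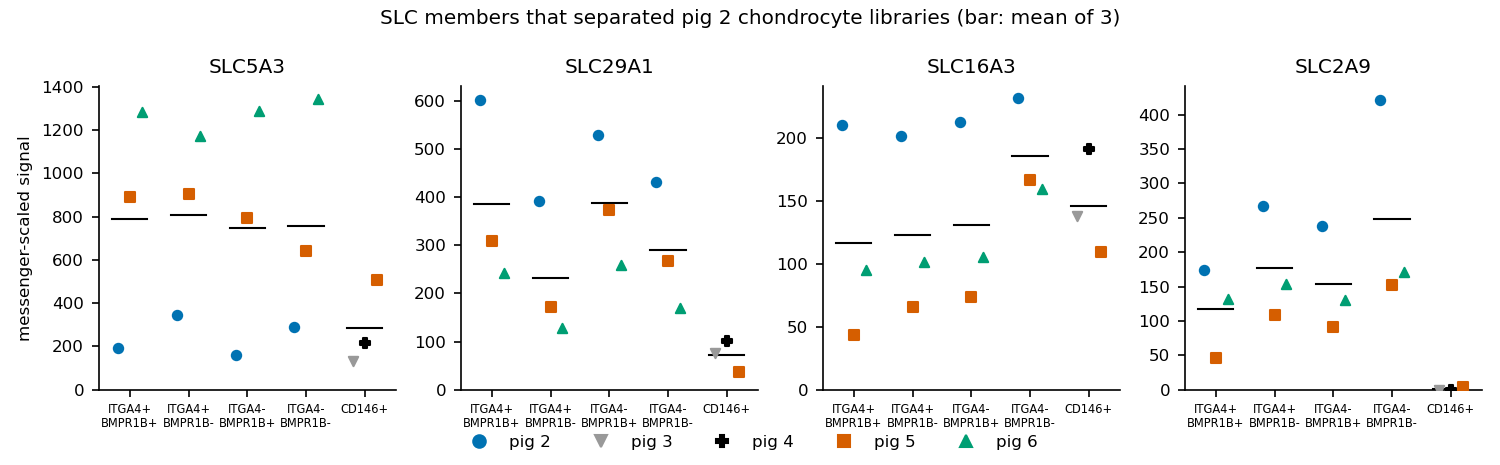
Messenger-scaled signal (linear axis from 0) of SLC5A3, SLC29A1, SLC16A3 and SLC2A9 in the 15 libraries, with symbols for the pig and a bar at the mean of 3. In each chondrocyte population the pig 2 library is the lowest for SLC5A3 and the highest for SLC29A1, SLC16A3 and SLC2A9.

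Genes that work with these carriers were read from a separate list of 14 pumps, partners and kinases. Of these, 9 were tested against CD146+ cells and 3 rose and 1 fell, beside 17.1% and 17.3% of all genes. ATP2B1, the plasma membrane calcium pump, was higher (2.32, SE 0.30, adjusted p = 0.00216), as was STK39, a kinase that activates cation and chloride cotransporters (2.02, adjusted p = 0.00561). CA2, a carbonic anhydrase, was lower (-4.42, adjusted p = 0.00703). BSG, the chaperone of MCT1 and MCT4, did not pass (-0.05, adjusted p = 0.861). None of the 9 was called for BMPR1B or ITGA4, with the block or without, where at most 1.47% of all genes were called in a given direction.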

How the data were processed

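Total RNA of sorted pig cells went into libraries by the NuGen Ovation SoLo kit. Per the study's methods, the authors aligned reads with STAR to the Ensembl84 pig reference and quantified them with Partek E/M (versions not given in the sources used here). The deposited table holds 1 signal value per gene and library. Every library sums to nearly the same total and holds a lowest value of 0.0001. The deposited values hold no read counts and low values share no common step, so depth could not be read from them. The paper states that its supplement lists read numbers for samples other than its fetal tissues, and those were not used here. Whether values are per length is not given. Levels were not compared between genes, except to pick the row of highest signal in each class for the named genes. A value at the lowest may be a failed estimate.

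Rows of structural (1116) and mitochondrial (37) RNA were set aside. The 24169 messenger rows were scaled to a total of 1000000 and then divided by the median, over 11163 genes, of their ratio to the geometric mean of all libraries. Genes over 5 in at least 3 libraries (9961) were tested on log2(signal + 1) with limma 3.58.1 in R 4.3.3 (trended prior, Benjamini-Hochberg over all genes tested, threshold 0.05). Chondrocytes were averaged per pig for the comparison with CD146+ cells. The procedure was tested on simulated data. Samples with 1 pig number came from the same animal, and deviations from group means correlated within a pig (0.125 to 0.409, median 0.312, against a median of -0.215 between pigs; 12 of 12 libraries correlated best with their own pig). Such deviations cancel within each group, so the centering alone pulls correlations between pigs to negative values, and part of that contrast was fixed in advance. The p-values of all chondrocytes against CD146+ cells measure the spread between pigs. Those of single populations against CD146+ cells come from a fit without a block that treats all 15 libraries as separate, although the populations shared their animals. Pig 5, which was on both sides, was not paired. Those of the sort axes measure the spread within pigs where the pig was a block, and without the block treat the 4 libraries of a pig as separate.

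Named genes were SLC8A3, carriers with a textbook role in cartilage or cell volume, the 10 with the smallest p in each direction against CD146+ cells, the leading genes of each sort axis and the highest row of each class. Other called genes are listed by class, and some genes included in the counts are not reported here by name. Members and lists were chosen with earlier results of these data known. Symbols were checked against a RefSeq list (Sscrofa11.1): 207 rows had the same symbol, 39 none and 3 another one (SLC25A21, SLC25A11 and 1 row of SLC25A6). The rule missed 13 symbols that begin with SLC and 63 rows named SLC only in that list. Alternatives were the deposited scale, the total alone, a pseudocount of 5, no filter, the pig as a block and leaving out each replicate.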

Additional observations from a re-analysis of the deposited data

How the results depend on the processing

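The number of SLC rows called against CD146+ cells ranged from 25 to 41 for all chondrocytes when 1 pig or 1 CD146+ library was left out (25 without pig 5, 31 without pig 6), from 41 to 47 for ITGA4+BMPR1B+, 33 to 43 for ITGA4+BMPR1B-, 39 to 45 for ITGA4-BMPR1B+ and 37 to 43 for ITGA4-BMPR1B- cells. It stayed at 0 for BMPR1B, ITGA4 and the interaction. On the deposited scale the comparisons with CD146+ cells called 12, 4, 2, 2 and 2 of 77 rows, where 691 of 7049 genes were called for all chondrocytes. SLC35A4 (0.27) and SLC36A4 (0.20) there changed sign but stayed below the median shift of all genes. A pseudocount of 5 gave 46 and no filter 57 of 248 rows for all chondrocytes. The pig as a random block gave 59, 53, 51, 57 and 51, and as a fixed block 48, 45, 51 and 45 for the 4 populations. For the fits against CD146+ cells with a replicate left out, another pseudocount, no filter or a block, the share of all genes called is not given. A change in those counts therefore cannot be told from a change over all genes. For BMPR1B the block gave 3, and in fits chosen after seeing the data it gave 2 with the total alone, 0 on the deposited scale, 4 without the ITGA4+BMPR1B- library of pig 2 and 0 whichever pig was left out. For those chosen fits the share of all genes called is not given. For ITGA4 the block on the deposited scale gave 38 of 77 rows, all higher, where 3507 of 7049 genes were called and the median gene shifted by 0.316. The cause of these changes was not tested. On the messenger scale ITGA4 gave 0 with the block and without it, as did the interaction. Of 496 values of named genes under other settings, 458 kept direction and call, 19 lost the call, 17 gained it and 2 reversed. The number of libraries limits the precision, and depth was not taken into account.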

Other observations

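Transporters outside the symbol rule were read from further lists. Of 27 solute carriers that go by other names, 12 rows were tested against CD146+ cells. In chondrocytes 2 were higher and 1 lower, beside 17.1% and 17.3% of all genes. ANKH, which exports pyrophosphate and citrate and restrains mineralization, was higher in chondrocytes (log2 difference 3.14, SE 0.34, limma adjusted p = 0.00112), as was SFXN3, a mitochondrial serine carrier (2.37, adjusted p = 0.00515). NPC1, the lysosomal cholesterol transporter, was lower (-1.01, adjusted p = 0.0140).

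Of 63 rows named SLC only by the RefSeq list, 18 were tested, 3 were higher and 4 lower, near the same shares of all genes. SLC6A8, the creatine transporter, was higher (3.59, SE 0.47, adjusted p = 0.00223), as were SLC3A2, the heavy chain that partners amino acid exchangers (0.81, adjusted p = 0.0126), and a second row for SLC1A4 (2.03, adjusted p = 0.0283). SLC4A11 (-3.08, adjusted p = 0.00589), SLC16A13 (-1.59, adjusted p = 0.00226), SLC16A11 (-2.09, adjusted p = 0.0265) and SLC35C1, the GDP-fucose carrier (-1.83, adjusted p = 0.0480), were lower. SLC7A11, the cystine and glutamate exchanger, did not pass (-0.63, adjusted p = 0.0815). No row of either list was called for BMPR1B or ITGA4, where at most 1.47% of all genes were called in a given direction.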
